A study of Homo sapiens with 8 samples.

Results

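The comparison described here is of the expression level reached after treatment with 5-aza-dC by *TET1* knockdown and control clones of HCT116, a line derived from a human colorectal carcinoma. It uses 4 of the 8 arrays of the series, 1 for each clone. CONT1 and CONT2 were stably transfected with the pcDNA6.2-GW/EmGFP-miR-neg plasmid, which expresses a miRNA without a target. The vectors integrated in TET1-KD1 and in TET1-KD2 each expressed an artificial miRNA directed at *TET1*, with a different miRNA in each clone. All clones were selected with G418. The 4 treated cultures received 5-aza-dC at 1 µM for 72 h, with drug and medium renewed daily. The other 4 arrays hold the same clones without the drug and serve here only as the untreated level of each gene. A replicate is a different clone, so n = 2 in each group, and the p-values measure the spread between single clones grown from single colonies. The arrays were taken by their titles, because a second field of the labels gives mock treatment for every control array and 5-aza-dC for every knockdown array.

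DNA methyltransferases copy methylation of CpG sites onto new DNA strands, and 5-aza-dC is a nucleoside analog that traps these enzymes, so that methylation is lost as cells divide. Genes whose promoter CpG islands are methylated in cancer cells, among them many antigens normally made only in the testis, are often re-expressed after the drug. TET1 is a dioxygenase that oxidizes 5-methylcytosine to 5-hydroxymethylcytosine, a first step of active demethylation. The comparison asks whether clones with less *TET1* reached different expression levels under the drug.

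After removal of control spots, 58717 of 62976 spots on the SurePrint G3 array remained, with 50599 distinct probes of 60 bases. Values are log2 signals after the 75th percentile of each array was set to a common value, so that 1 unit is a 2-fold difference, and every difference below is TET1-KD minus CONT on this scale. The 75th percentile itself was 396 and 476 in treated CONT1 and CONT2, 624 and 596 in treated TET1-KD1 and TET1-KD2, and 546 to 600 on the untreated arrays. Between 29490 and 34276 spots per array were above background. The 4 untreated arrays and both treated knockdown arrays shared slide 1, whereas both treated control arrays were on slide 2, scanned later. Slide and kind of clone therefore cannot be told apart in the treated comparison, which has no array of the other kind on either side, while the untreated comparison lies within slide 1.

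*TET1* itself was lower in the knockdown clones at both tested probes, without passing the test. At the probe near the 5′ end of the gene (chr10:70332072-70332131, hg19), the treated signals were 9.64 and 9.64 in CONT1 and CONT2 and 8.99 and 9.48 in TET1-KD1 and TET1-KD2, a difference of -0.40 (standard error 0.24, limma adjusted p = 0.308). At a probe near the 3′ end (start 70454164) they were 6.33 and 5.86 against 4.77 and 4.91, a difference of -1.26 (standard error 0.24, limma adjusted p = 0.0564). Both knockdown clones lay below both control clones at each of these probes, and TET1-KD1 was the lower one. Another probe (start 70453516) was too dim to test. In the untreated clones the same 2 probes differed by -0.69 and -0.98.

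Of 26721 probes that both arrays of 1 or both treated groups showed above background, 467 (1.75%) were called lower in the knockdown clones and 1134 (4.24%) were called higher, by limma at an adjusted p below 0.05 and a difference of at least 2-fold. Higher probes were 70.8% of all calls, and this share moved with the processing. It was 46.0% with normexp background correction, 58.5% for probes above background on all 4 arrays, 81.6% when the slides were matched on spike-in RNAs and 54.8% with 50 added before the log2. Spike-in matching moved the median difference of all tested probes from 0.04 to 0.20, so that under it every difference is read against 0.20. The rule then asked for agreement between probes: a gene was kept when at least 2 of its probes at positions that do not overlap were called in 1 direction and none in the other. Of 4629 genes with at least 2 tested positions, 2 were kept lower (0.0432%) and 12 were kept higher (0.259%). With any 1 of the 4 treated arrays left out no gene was kept, and single probes were called only without treated CONT1, 86 lower and 1 higher.

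**Figure D1:**
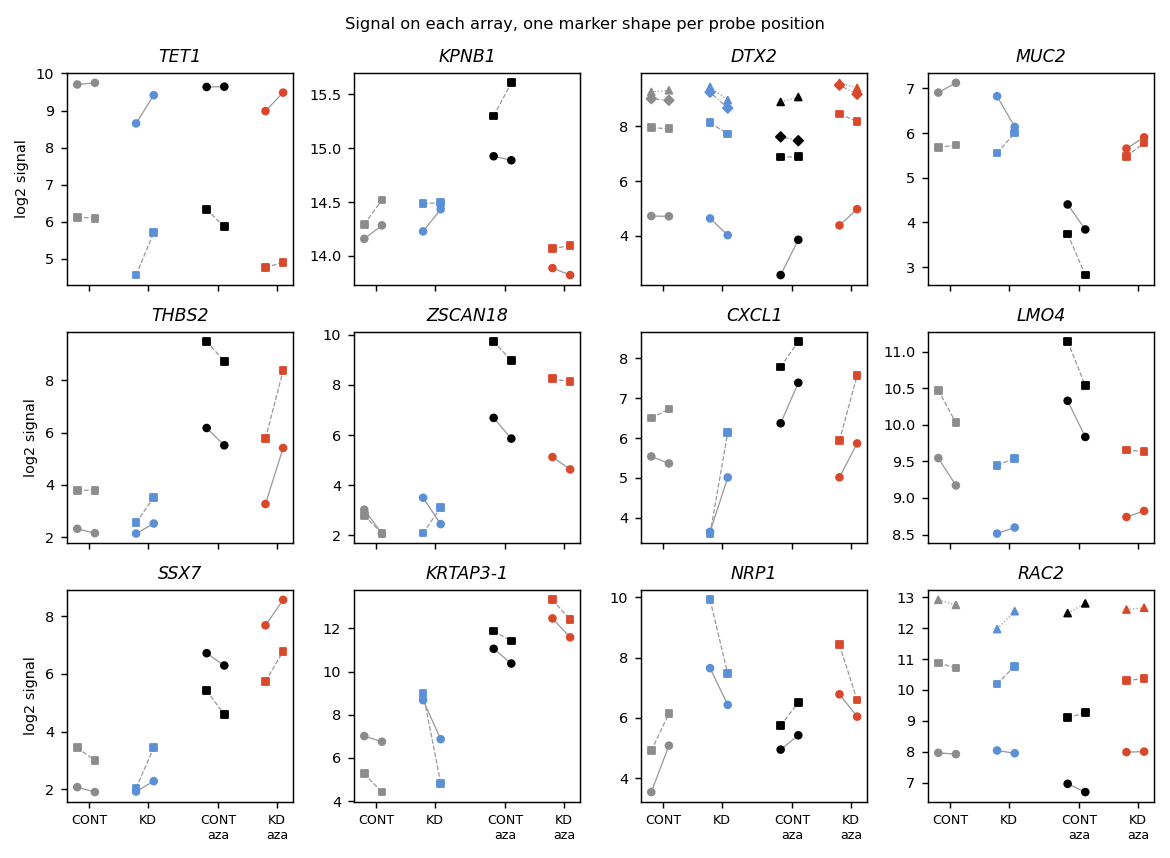
Log2 signal (y axis) of 12 genes on all 8 arrays, with clone 1 on the left and clone 2 on the right of each group on the x axis (CONT, KD, CONT aza and KD aza) and a marker shape for each tested probe position. *KPNB1* is highest in the 2 treated control clones at both positions, the called positions of *DTX2*, *MUC2* and *RAC2* are lowest there, and *THBS2* and *CXCL1* differ between the 2 treated knockdown clones.

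The genes kept lower were *KPNB1* and the unnamed transcript XLOC_002603. *KPNB1* encodes importin beta 1, which carries proteins into the nucleus. At its first probe (chr17:45760373-45760432) the signals were 14.93 and 14.89 in treated CONT1 and CONT2 and 13.89 and 13.82 in treated TET1-KD1 and TET1-KD2, a difference of -1.05 (standard error 0.17, limma adjusted p = 0.0467). At the second (start 45760899) they were 15.30 and 15.61 against 14.07 and 14.10, a difference of -1.37 (standard error 0.20, limma adjusted p = 0.0393). All 4 untreated arrays read 14.16 to 14.52 at these positions, so the treated control clones stood above the untreated level and the treated knockdown clones below it. *KPNB1* was no longer kept with normexp, quantile normalization, spike-in matching or the GC trend removed. With spike-in matching its mean difference was -0.57 against -1.21 (lowest limma adjusted p of its probes 0.094). XLOC_002603 was called at 2 of 4 tested positions, by -1.33 and -2.76, the second against knockdown clones below background (at least 2.28 lower). The second was tested only because the control clones were above background, so its direction was built into the filter. XLOC_002603 was not kept among probes above background on all 4 treated arrays. On untreated arrays the signals of XLOC_002603 were 2.06 to 4.86.

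The genes kept higher that carry a symbol were *DTX2*, *RAC2*, *MUC2*, *BAALC*, *SCD5*, *KIAA1751*, *HERC2* and *RASA4*. The others were XLOC_008047, LOC388210, LOC401357 and LOC100288292. *DTX2* encodes a ubiquitin ligase of the Deltex family, which acts in Notch signaling. At 1 of its called probes (chr7:76134780-76134839) treated CONT1 and CONT2 had 7.62 and 7.47 and treated TET1-KD1 and TET1-KD2 had 9.50 and 9.17, a difference of 1.79 (standard error 0.21, limma adjusted p = 0.0281), and the other called probe (start 76129782) differed by 1.43. The untreated clones had 8.66 to 9.24 at the first of these, close to the treated knockdown clones. Between the called probes lies one (start 76132744) with 8.89 and 9.07 against 9.59 and 9.40, a difference of 0.52 that was not called. *DTX2* was not kept with normexp, where its mean difference was 0.73 against 1.3, or with the GC trend removed.

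*MUC2*, the main secreted mucin of intestinal goblet cells, had 4.40 and 3.84 in treated control clones and 5.65 and 5.91 in treated knockdown clones at a probe starting at 1092337 of chromosome 11. The second called probe (start 1103558) had 3.74 and 2.82 against 5.48 and 5.78. Since both probes were below background in both treated control clones, only bounds can be given, of at least 1.28 and at least 1.13 on the log2 scale. They were tested only because the knockdown clones were above background, so that a difference in this direction was built into the filter. *MUC2* was not tested among probes above background on all 4 arrays, and with normexp its mean difference was 0.27 against 2.00 (lowest limma adjusted p of its probes 0.315). With the GC trend removed or 50 added it was not kept either. Untreated, the 4 clones had 6.14 to 7.13 and 5.55 to 6.0, with no call.

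*RAC2* encodes a GTPase found mostly in blood cells. It was called at 2 positions, with 9.10 and 9.26 in treated CONT1 and CONT2 against 10.30 and 10.37 in treated TET1-KD1 and TET1-KD2 (start 37622795 of chromosome 22, difference 1.15, limma adjusted p = 0.0439) and 6.96 and 6.69 against 7.99 and 8.0 (start 37636848, difference 1.17, limma adjusted p = 0.0472). The probe nearest its 3′ end (start 37621452) was the brightest of the 3 and read 12.49 and 12.80 against 12.60 and 12.66, a difference of -0.01. *RAC2* was not kept with normexp, with 50 added or with the GC trend removed, where its mean difference was 0.50 against 0.77. The same split occurred in *HERC2*, a very large ubiquitin ligase. Of its 16 tested positions, 2 were called higher, by 1.79 and 2.02, while the others lay between -0.80 and 0.70. In *BAALC*, *SCD5*, *KIAA1751*, *HERC2* and *RASA4* a second called position was below background in the treated control clones, and its bound was under 2-fold. That position was tested only because the knockdown clones were above background, so its direction was built into the filter. Of the 12 genes kept higher, 5 were still kept among probes above background on all 4 treated arrays. The smallest second differences among the called genes, -1.05 in *KPNB1*, 1.15 in *RAC2* and 1.16 in *RASA4*, lie just inside the 2-fold limit. No gene lay just outside it, because no probe with an adjusted p-value below 0.05 differed by less than 2-fold.

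Positions of 1 gene differed from each other throughout. Among genes with several tested positions, a probe called lower (138 probes) had a median difference of -1.48, and the other positions of its gene had a median of -0.12, with 58.7% on the same side of 0 and 4 probes whose other position was called the same way. For probes called higher (328 probes) the medians were 1.63 and 0.15, with 59.5% on the same side and 26 called the same way. The probes with another position called the same way were 2.9% of those called lower and 7.93% of those called higher. Of all tested probes, 1.75% were called lower and 4.24% higher, and a gene could have several other positions. Whether calls met in 1 gene more often than by coincidence was not tested. For uncalled probes 55.1% of other positions were on the same side. In 10 genes probes were called in opposite directions. *RPS10*, a ribosomal protein gene, was one of them: at a probe starting at 34385237 of chromosome 6 the treated control clones read 18.70 and 18.55 and the knockdown clones 17.60 and 17.53, while at a probe starting at 34392546 they read 14.25 and 14.38 against 15.49 and 15.43. The groups did not overlap at either probe, but with opposite order.

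The same was seen when the probe nearest the 5′ end of a transcript was set against the probe nearest its 3′ end in 2328 genes. Across these genes, which are not independent replicates, the 2 differences correlated with r = 0.158 (Spearman 0.142) in the treated comparison, and with r = 0.765 (Spearman 0.743) in the untreated comparison within slide 1. For the treated against the untreated knockdown clones, also within slide 1, r was 0.686, and for the treated against the untreated control clones, which again spans both slides, it was 0.372. In the treated comparison 164 genes were at least 2-fold higher at the 5′ probe, and their median at the 3′ probe was 0.18. The r of the treated comparison was 0.163 with normexp, 0.168 with quantile normalization, 0.215 with the slides matched on spike-ins and 0.220 with a trend on GC content removed.

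**Figure D2:**
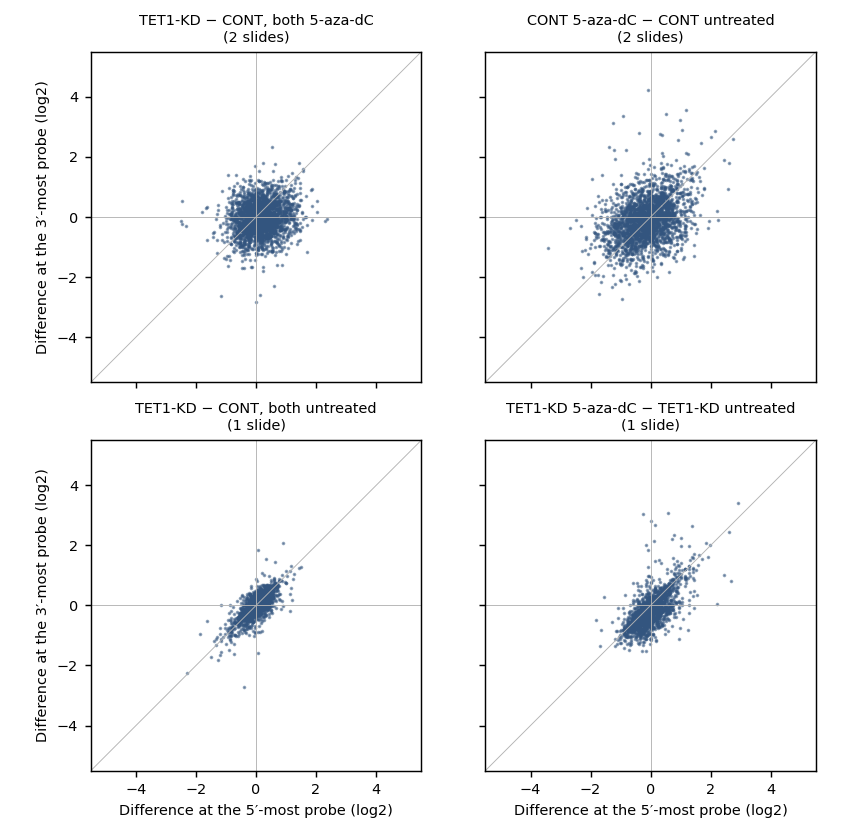
Log2 difference at the 3′-most probe (y axis) against the log2 difference at the 5′-most probe (x axis) of 2328 genes in 4 contrasts, 1 point per gene, with the diagonal of equal differences. The points follow the diagonal within slide 1 (r of 0.765 and 0.686 in the lower panels) and scatter around 0 in the treated comparison (r of 0.158, upper left).

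Probes that were called also differed in base composition. The median difference of treated clones went from -0.16 for probes of 35% GC or less to 0.34 for probes over 50% and up to 55% and 0.55 for probes over 55%. Between these outer classes the share called higher went from 0.433% to 14.9%, and the share called lower from 3.37% to 0.839%. In the untreated comparison the order was the opposite, from 0.09 to -0.13. The correlation of GC content with the difference over probes was 0.292 in treated and -0.150 in untreated clones, and over the 23757 probes tested in both, treated and untreated differences correlated with r = 0.187.

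**Figure D3:**
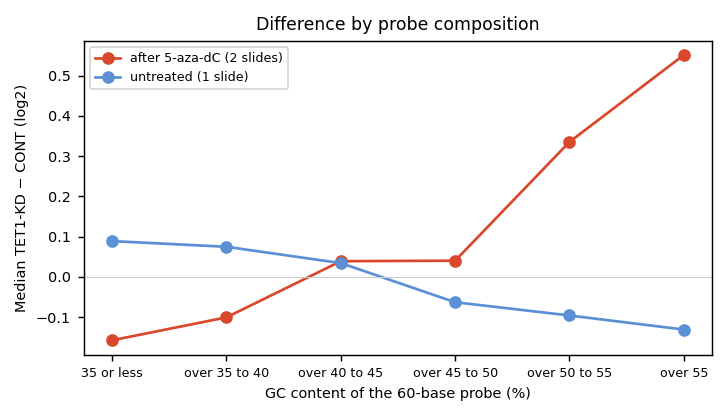
Median log2 difference between knockdown and control clones (y axis) in 6 classes of probe GC content (x axis, percent), for treated clones on 2 slides and untreated clones on 1. The treated line climbs from -0.16 to 0.55 and the untreated line descends from 0.09 to -0.13.

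Probe starts are given for *KPNB1* and for *PXN*, which encodes paxillin, an adaptor of focal adhesions. Both were picked as examples in which composition and direction went together, while the correlation over all probes was 0.292. The first 30 of the 60 bases are given 5′ to 3′ on the transcript strand, from the deposited annotation (hg19), with G and C in capitals.
KPNB1 at chr17:45760373-45760432, difference -1.05: CtttttCCCaGaaaaCaaGGGGttaGatGt
KPNB1 at chr17:45760899-45760958, difference -1.37: GtaaaCaCataCaCaCaaaaCaGCaaaCtt
PXN at chr12:120648265-120648324, difference -0.72: CtGtaaaCttCCaaGCtGGCttttCCCatt
PXN at chr12:120651646-120651705, difference 1.09: CCtGGaGaaCtatatCtCaGCCCtCaaCaC
PXN at chr12:120657291-120657350, difference 1.15: aaGaaGtaaCaGaGCCaGCtGtaGtGGCaG
Both *KPNB1* probes have 35% GC over their full length. The *PXN* probe with 36.7% GC read 15.44 and 15.71 in treated control clones against 15.18 and 14.51 in treated knockdown clones. The *PXN* probes with 55% GC read 6.18 and 6.89 against 7.91 and 7.35, and 4.69 and 3.79 against 5.88 and 4.90.

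The 10 spike-in RNAs, each on 35 spots and independent of the cells, gave the size of the slide difference by brightness. Their signals are given before scaling, as slide 2 minus slide 1. On slide 1 the 8 brightest had SDs of 0.0184 to 0.0509 over 6 arrays. On slide 2 the brightest, E1A_r60_1, differed by -0.05 from slide 1, E1A_r60_a97 by -0.36, and E1A_r60_a20 and E1A_r60_a135 by -0.99 and -1.01. At the dim end E1A_r60_a104 differed by 0.01. Scaling to the 75th percentile then raised both slide 2 arrays against slide 1, so these are not the differences left after it. That percentile was 396 and 476 on slide 2 and 546 to 624 on slide 1. Treated knockdown clones were also the nearer ones to the untreated level. Among 20938 probes above background on all 8 arrays, the mean of the treated knockdown clones was closer to the mean of the untreated arrays than that of the treated control clones in 68.4%, and this share was 97.6% of 551 probes called higher and 93.1% of 335 called lower. For the probes called higher, the median distance to the untreated level was 0.22 in the knockdown and 1.64 in the control clones. The part of the slide in any single difference was not tested beyond these values.

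**Figure D4:**
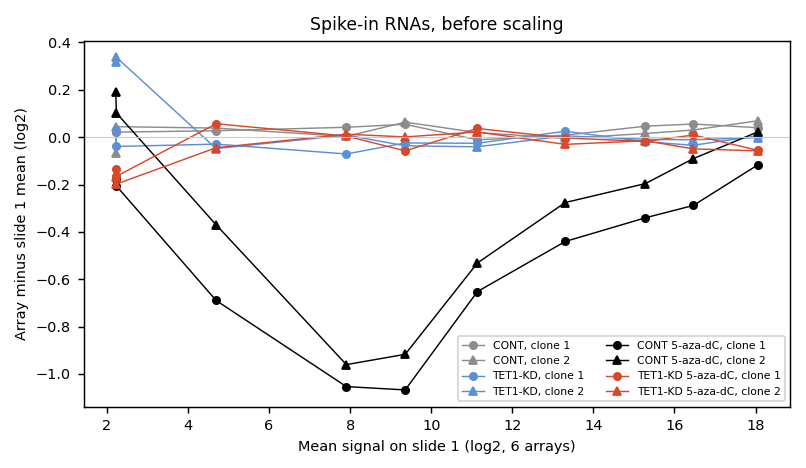
Log2 signal of 10 spike-in RNAs before scaling, on each of the 8 arrays, as a difference from their mean on slide 1 (y axis) against that mean (x axis, log2). The 6 arrays of slide 1 lie near 0 for the 8 brightest spike-ins, and the 2 treated control arrays drop by up to 1.01 in the middle of the range.

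Because calls rest on very small spreads between 2 clones, a second rule was added after the counts of calls had been seen. A probe was separated when both knockdown clones lay beyond both control clones and the group means differed by at least 2-fold. The nearest clones of the 2 groups could therefore differ by far less. A gene was kept when it was separated at 2 or more positions that do not overlap and in no position the other way. Single probes were separated in 1722 cases (6.44%) lower and 1788 (6.69%) higher. Of the 4629 genes, 51 (1.1%) were lower at 2 or more positions and 39 (0.843%) were higher. These are descriptions with no test of their own, and most of them did not pass limma's. The probes behind them had a mean GC content of 40.2% in the genes lower and 52.0% in the genes higher, against 43.8% in all tested probes. With a GC trend removed and with the slides matched on spike-ins, 29 of the 51 and 13 of the 39 were kept under both. With normexp background correction 11 genes were lower and 5 higher.

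Of the 51 genes lower by this rule, 30 carry a symbol, and 12 genes were not above background on any untreated array at the positions kept. *THBS2*, which encodes the secreted matrix glycoprotein thrombospondin 2, read 9.50 and 8.73 in treated CONT1 and CONT2 and 5.77 and 8.37 in treated TET1-KD1 and TET1-KD2 (start 169615901 of chromosome 6, difference -2.04, limma adjusted p = 0.216), and 6.18 and 5.52 against 3.27 and 5.41 at a second position. TET1-KD1 was far below the others, and TET1-KD2 was close to CONT2 at both. *ZSCAN18*, a zinc finger gene, read 9.74 and 8.97 against 8.26 and 8.12 (start 58595379 of chromosome 19, difference -1.16, limma adjusted p = 0.0971) and 6.69 and 5.86 against 5.13 and 4.63, with both knockdown clones at like levels. An array of a whole culture cannot tell fewer expressing cells from less RNA per cell.

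Others silent in untreated clones were *ANKRD26P1*, a pseudogene, with 9.96 and 10.16 in treated control clones against 8.86 and 8.74 (difference -1.26, limma adjusted p = 0.0405), and *TFEC*, a transcription factor of the MITF family, with 8.21 and 8.40 against 6.77 and 7.52 (difference -1.16, limma adjusted p = 0.0957). *DNAH3*, an axonemal dynein heavy chain, had 6.91 and 6.84 against 5.69 and 5.63 at 1 position, and 8.53 and 8.81 against 6.72 and 8.53 at the other. In *CELF4*, an RNA-binding protein of neurons, the values were 7.08 and 7.03 against 5.13 and 6.48. TET1-KD2 thus came close to the control clones in *CELF4* and at 1 *DNAH3* position, while in *ANKRD26P1* the knockdown clones were nearly equal. *ZNF880*, a KRAB zinc finger gene, was separated at 2 of 3 tested positions, and its largest difference, -2.39, came from 8.61 and 8.14 against 6.61 and 5.36, where the untreated clones had 4.58 to 6.26.

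Genes higher by the rule that were silent on every untreated array were *SPANXB2* and *SSX7*, both cancer-testis antigens on chromosome X. *SPANXB2* had 7.26 and 8.89 in treated CONT1 and CONT2 and 9.70 and 11.95 in treated TET1-KD1 and TET1-KD2 (start 140097676, difference 2.75, limma adjusted p = 0.141), and 6.18 and 8.03 against 8.86 and 10.07 (difference 2.36). *SSX7* had 6.71 and 6.29 against 7.68 and 8.56 (start 52679425, difference 1.62, limma adjusted p = 0.0769) and 5.42 and 4.59 against 5.74 and 6.78. The knockdown clones were thus the higher ones at all 4 probes, and TET1-KD2 was highest at each. Both belong to families of nearly identical copies, so the signal can come from a relative.

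The RefSeq table held a promoter for 5 of the 7 such silent genes that carry a current symbol. The 250 bases just upstream of the start are shown for the gene with the most CpG sites, for the gene with the largest difference and for the one that was higher, 5′ to 3′ on the gene's strand (RefSeq, GRCh38.p14), with CpG sites (CG, the same on both strands) in capitals.
ZSCAN18, lower, chr19:58118405-58118654: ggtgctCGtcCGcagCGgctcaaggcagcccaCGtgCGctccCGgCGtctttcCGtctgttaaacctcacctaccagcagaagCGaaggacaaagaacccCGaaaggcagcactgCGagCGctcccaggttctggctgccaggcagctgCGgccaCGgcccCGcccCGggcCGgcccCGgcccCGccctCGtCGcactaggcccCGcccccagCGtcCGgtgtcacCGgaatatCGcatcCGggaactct
THBS2, lower, chr6:169253847-169254096: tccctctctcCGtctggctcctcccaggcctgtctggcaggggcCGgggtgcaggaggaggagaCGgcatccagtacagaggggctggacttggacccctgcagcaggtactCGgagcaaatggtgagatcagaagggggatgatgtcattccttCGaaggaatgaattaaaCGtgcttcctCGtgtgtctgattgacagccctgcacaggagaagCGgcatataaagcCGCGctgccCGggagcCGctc
SSX7, higher, chrX:52654901-52655150: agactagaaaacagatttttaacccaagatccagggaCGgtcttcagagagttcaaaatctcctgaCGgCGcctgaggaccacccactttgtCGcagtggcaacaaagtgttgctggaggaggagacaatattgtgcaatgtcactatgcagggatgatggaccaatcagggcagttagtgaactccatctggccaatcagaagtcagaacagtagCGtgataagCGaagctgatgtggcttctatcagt
The window of *ZSCAN18* holds 27 CpG sites, a number reached by 17.3% of 27305 promoters of the same length. That of *THBS2* holds 12 (48.3% reach it) and that of *SSX7* holds 6 (61.3%), against a median of 11 and quartiles of 3 and 23 over all promoters. *CELF4* and *TFEC* have 8 and 1. The 5 promoters thus lay on both sides of the median. Methylation was not measured in these files.

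TET1-KD1 was below TET1-KD2 at every kept position in 30 of the 51 genes lower and above it in 7. The gap between the knockdown clones had a median of 0.73 and exceeded 1 in 18 genes, and that between the control clones had a median of 0.36 and exceeded 1 in 3. In the 39 genes higher the gaps had medians of 0.27 between the knockdown and 0.39 between the control clones, and TET1-KD1 was below TET1-KD2 in 15 and above it in 16. Both sets were chosen by the levels of these same clones, and the order and gaps were not counted over all tested genes. Whether they are particular to these sets was therefore not tested. In *EPB41L4A*, a membrane skeleton protein, TET1-KD1 stood alone: the treated signals were 8.59 and 8.63 in the control clones, 4.59 in TET1-KD1 and 8.02 in TET1-KD2 (difference -2.31, standard error 1.17, limma adjusted p = 0.252). *PLCL2*, a phospholipase C relative without catalytic activity, had 7.60 and 7.54 in the control clones, 5.02 in TET1-KD1 and 7.26 in TET1-KD2. *NEAT1*, the long noncoding RNA of paraspeckles, had 14.04 and 14.82 against 12.77 and 13.36 at its brightest position and differed by 0.03 at the position farthest along the gene.

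Some of the genes lower were also lower before treatment, where all 4 arrays share a slide. *CXCL1*, a chemokine that attracts neutrophils, had 7.78 and 8.42 in treated control clones against 5.93 and 7.57 in treated knockdown clones (start 74736850 of chromosome 4, difference -1.35, limma adjusted p = 0.217), and untreated 6.50 and 6.73 against 3.61 and 6.13. *HLA-DPB1*, a chain of MHC class II, had 8.70 and 9.05 against 6.72 and 8.33 after treatment and 7.92 and 6.91 against 2.17 and 4.99 before it. *LMO4*, a LIM-only transcriptional regulator, had 10.33 and 9.84 against 8.74 and 8.82 treated and 9.55 and 9.17 against 8.51 and 8.60 untreated, with treated differences of -1.30 and -1.19 and untreated ones of -0.80 and -0.76. In all 3 genes both knockdown clones lay below both control clones in either condition at the position given. *TMTC1*, an endoplasmic reticulum mannosyltransferase, had 7.45 and 7.33 against 4.29 and 5.84 treated, and 7.28 and 7.12 against 2.15 and 4.93 untreated. At its second tested position the untreated order was mixed, with 6.24 and 6.09 against 8.64 and 3.85.

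Of the 51 genes, 4 were separated by 2-fold in the same direction at 2 positions in the untreated clones too, and of the 39 genes higher 1 was, *NRP1*. *NRP1* is a co-receptor for semaphorins and VEGF. It had 5.74 and 6.52 in treated CONT1 and CONT2 and 8.43 and 6.59 in treated TET1-KD1 and TET1-KD2 (start 33466936 of chromosome 10, difference 1.38, limma adjusted p = 0.248), and untreated 4.91 and 6.15 against 9.92 and 7.46 (difference 3.17). TET1-KD1 was highest in both conditions. Over all 24346 probes tested in the untreated clones, limma called 0 lower and 0 higher, with 1298 and 807 at an unadjusted p below 0.05, and a fit over all 8 arrays called 5 and 2. By the separation rule 40 genes were lower and 10 higher among 4246 with 2 positions.

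Most genes higher by the rule were expressed in every untreated clone (34 of 39). *TGFA*, a ligand of the EGF receptor, had 8.38 and 8.15 in treated control clones against 9.38 and 9.52 in treated knockdown clones (start 70683472 of chromosome 2, difference 1.19, limma adjusted p = 0.046) and 5.05 and 5.5 against 7.15 and 6.32 at a second position. Untreated, it had 9.60 to 9.70 at the first position in all 4 clones. *TET2*, the paralog of *TET1*, had 5.83 and 5.66 against 7.37 and 6.79 (start 106193920 of chromosome 4, difference 1.33, limma adjusted p = 0.0618), and at a second position it was below background in both treated control clones, with a bound of at least 1.24. The second position was tested only because the knockdown clones were above background, so its direction was built into the filter. *TET2* was not kept among probes above background on all 4 treated arrays. The brightest *TET2* probe (start 106200570) had 7.87 and 7.97 against 8.57 and 7.98, a difference of 0.36.

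*MUC4*, a membrane mucin, was higher at 3 of 4 probes, of which a pair overlap, by 1.38 to 1.84, with 7.02 and 6.56 against 8.61 and 8.64 at the position called by limma (start 195514780 of chromosome 3). *KRTAP3-1*, a keratin-associated protein of hair, had 4.42 to 9.0 in untreated clones and 11.88 and 11.41 in treated control clones against 13.32 and 12.41 in treated knockdown clones at 1 position. *UTS2*, the peptide urotensin 2, had 7.03 and 7.68 against 8.67 and 8.72, and *FAM46A*, a noncanonical poly(A) polymerase now named TENT5A, had 9.06 and 9.25 against 10.85 and 10.23. *CBX1*, the heterochromatin protein HP1 beta, was higher by 1.82 and 1.00 at 2 positions, while a brighter position differed by 0.03.

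The silenced tumor suppressor genes *SOX17*, *SFRP1*, *DKK3* and *SFRP2*, which were also measured by RT-qPCR, were not called on the array. *SOX17*, an endoderm transcription factor that antagonizes WNT signaling, had 8.15 and 8.0 in treated CONT1 and CONT2 against 6.95 and 7.61 in treated TET1-KD1 and TET1-KD2, a difference of -0.80 (standard error 0.29, limma adjusted p = 0.15). *SFRP1*, a secreted WNT antagonist, had 7.47 and 6.99 against 6.21 and 7.02, a difference of -0.62 (limma adjusted p = 0.304). In both, TET1-KD1 was the lowest clone, the groups overlapped in *SFRP1* and did not in *SOX17*. *DKK3*, another WNT antagonist, had 5.71 and 5.46 against 5.52 and 5.66 at its tested probe. *SFRP2* was too dim to test, with 4.74 and 5.5 against 3.2 and 4.60. The first 3 had 1 tested probe each and *SFRP2* none, so none could be kept at 2 positions.

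Gene lists were described by counts and medians of each gene's mean over its tested probes. Over all 19364 gene names the median was 0.03, and the share with any probe called was 2.2% lower and 5.02% higher, while 8.25% had a probe separated lower and 7.97% higher. Metallothioneins, small cysteine-rich proteins that bind zinc and copper, had the lowest median among the lists of pathways and families, -0.85 over 12 tested genes, 11 of them below 0. With the slides matched on spike-ins it was -0.13. None was called, and 5 (41.7%) had a probe separated lower. *MT1M* had 14.50 and 15.08 in treated control clones against 13.03 and 13.42 in treated knockdown clones, and *MT2A* 17.99 and 18.13 against 16.99 and 17.18. *MT1X* had 11.49 and 11.75 against 10.37 and 11.16 at a probe of 40% GC, and 14.53 and 15.27 against 14.39 and 14.63 at one of 55% GC. The 8 metallothionein probes under 50% GC lay between -2.26 and -0.86, and the 7 others between -0.72 and 0.35, while the list's median was -0.88 with the GC trend removed.

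**Figure D5:**
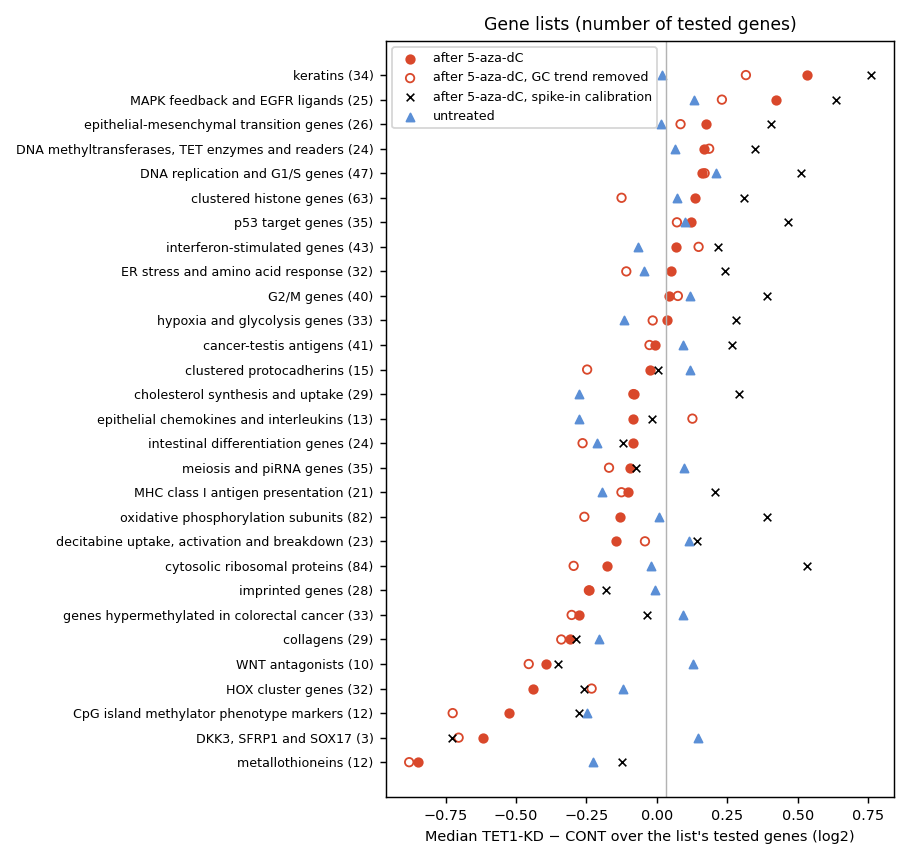
Median log2 difference between knockdown and control clones (x axis) over the tested genes of each list (y axis, with the number of genes), after 5-aza-dC as processed, with the GC trend removed and with spike-in matching, and untreated. Among pathways and families, metallothioneins have the lowest treated median (-0.85, but -0.13 with spike-in matching) and keratins the highest (0.53), and the grey line marks the median of all genes (0.03).

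Several lists hold genes silenced in cancer. WNT antagonists had -0.39 (10 genes, 8 below 0, none called), with *WIF1* lowest at 5.51 and 5.16 in treated control clones against 3.18 and 4.23. The *WIF1* probe was below background in both treated knockdown clones, so its difference is known only as a bound, -1.23. It was tested only because the control clones were above background, so the lower direction was built into the filter. CpG island methylator phenotype markers, which define colorectal cancers with widespread promoter methylation, had -0.53 (12 genes, 10 below 0, none called), and -0.25 in untreated clones, where all genes had 0.02. Their member *FOXL2* had 9.78 and 9.35 against 7.19 and 9.02. Genes hypermethylated in colorectal cancer had -0.28 (33 genes, 20 below 0), and 2 were called higher, *HOPX* and *SEPT9*. *HOPX* had 2.74 and 2.57 against 6.38 and 6.34 at 1 probe, and its other probe differed by -0.40. The lowest signals above background were 4.40 and 4.60 in treated CONT1 and CONT2. At that first *HOPX* probe the higher direction was thus built into the filter. Cancer-testis antigens had -0.01 (41 genes, 21 below 0, none called), on the other side of the median of all genes with spike-in matching (0.27 against 0.20) and with normexp (-0.05 against -0.08). These values include *SSX2IP* (0.14 and 0.29 at its probes), which encodes a protein that binds SSX2 and is not itself such an antigen. Meiosis and piRNA genes had -0.10 (35 genes, 1 called higher), imprinted genes -0.24 (28 genes, 1 called higher), HOX cluster genes -0.44 (32 genes, none called) and clustered protocadherins -0.02 (15 genes, 2 called lower and 1 higher). In *MAGEC2*, a cancer-testis antigen, TET1-KD2 stood alone, with 8.65 and 8.33 in the treated control clones, 8.42 in TET1-KD1 and 11.63 in TET1-KD2.

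Differentiation and structural genes went in both directions. Keratins had the highest median, 0.53 (34 genes, 6 below 0, against 0.32 with the GC trend removed), and 2 were called higher at single probes. One of them, *KRT83*, a hair keratin, was called by 2.02 and differed by 0.10 at its other probe. Intestinal differentiation genes had -0.09 (24 genes, 2 called higher, *MUC2* at 2 positions), collagens -0.31 (29 genes, 1 called each way) and epithelial-mesenchymal transition genes 0.17 (26 genes, 1 called each way). *ZEB1*, a repressor of epithelial genes, had 9.88 and 9.78 against 8.03 and 7.82 at the called probe (difference -1.91, limma adjusted p = 0.0225) and a difference of -0.74 at the other. *GRHL2*, an activator of epithelial genes, had 3.97 and 3.69 against 6.83 and 5.90 at its tested probe, a bound of at least 1.87. That probe was tested only because the knockdown clones were above background, so the direction was built into the filter. Epithelial chemokines and interleukins had -0.08 (13 genes, none called, *CXCL1* separated lower at 2 positions), and MAPK feedback genes and EGFR ligands 0.42 (25 genes, 1 called higher, *TGFA* at 1 of 2 separated positions).

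The list of DNA methyltransferases, TET enzymes and readers had a median of 0.17 (24 genes). It also holds dehydrogenase genes such as *IDH1* and *IDH3A* and DNA repair genes such as *XRCC1* and *LIG3*. *DNMT1*, the maintenance methyltransferase and target of the drug, was called lower at its tested probe, with 13.09 and 13.11 in treated control clones against 11.88 and 11.91 in treated knockdown clones (difference -1.20, limma adjusted p = 0.0382), but this probe has 23.3% GC and no second one was tested. *IDH3A*, a mitochondrial dehydrogenase, was called higher with 8.25 and 8.63 against 10.52 and 10.26. *UHRF1* had -0.67 and -0.05 at 2 probes and *DNMT3B* 0.04. Genes for uptake, activation and breakdown of decitabine had -0.15 (23 genes, none called).

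The remaining lists stayed near the median of all genes or had few calls. Interferon-stimulated genes had 0.07 (43 genes, 1 called higher), MHC class I antigen presentation -0.10 (21 genes, 1 called lower), p53 target genes 0.12 (35 genes), G2/M genes 0.04 (40 genes, 1 called higher) and DNA replication and G1/S genes 0.16 (47 genes, none called). In the p53 list *CDKN1A*, the inhibitor p21, had 8.76 and 8.84 against 10.89 and 10.44 at its tested probe (difference 1.86, limma adjusted p = 0.0299), and *MDM2*, which degrades p53, was called lower at 1 of 4 probes (-1.70) with -0.56, -0.41 and 0.32 at the others. Clustered histone genes had 0.14 (63 genes, 1 called lower and 4 higher), ER stress and amino acid response 0.05 (32 genes, 1 lower), hypoxia and glycolysis genes 0.04 (33 genes, 1 higher), cholesterol synthesis and uptake -0.08 (29 genes, none) and oxidative phosphorylation subunits -0.13 (82 genes, 1 higher). Cytosolic ribosomal proteins had -0.18 (84 genes, 56 below 0), with 5 genes called lower and 5 higher, and 0.53 when the slides were matched on spike-ins.

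Markers of cell types were summed on the linear scale. Summed signals of 10 markers of colorectal epithelium lay between 327112 and 395785 on all 8 arrays, with *EPCAM*, *CDH1* and *CDX2* above background on each and *CDH17* on none. The 8 fibroblast markers summed to 355 to 464 on untreated arrays, 1564 to 1797 in treated control clones and 1068 to 1413 in treated knockdown clones, with *COL1A2*, *COL3A1*, *LUM* and *PDGFRA* above background on no array, *COL1A1* on all 8, *DCN* and *THY1* on 4 and *PDGFRB* on 3. The 7 leukocyte markers on the array summed to 496 to 892, 2219 to 2661 and 1557 to 2160 in the same order, with *MS4A1* above background on none and *PTPRC* called lower (7.41 and 7.17 against 5.87 and 5.52). The 6 endothelial markers summed to 111 to 134, 286 to 330 and 236 to 347, with *VWF* called higher at 1 probe (2.29 and 3.14 against 4.77 and 4.97) and different by -0.18 at its brighter one, and *KDR* above background on none. The called *VWF* probe was below background in both treated control clones, so its direction was built into the filter. The median treated difference was 0.31 over 8 tested epithelial, -0.70 over 4 fibroblast, -1.45 over 5 leukocyte and 0.33 over 4 endothelial markers. Levels of the last 3 lists were thus higher in treated than in untreated clones of both kinds, and their part in the differences was not tested.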

How the data were processed

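RNA of 8 HCT116 clone cultures was hybridised in 1 colour to SurePrint G3 Human GE 8x60K v2 arrays. The deposited files hold gProcessedSignal, an intensity that Feature Extraction 10.7 had background-subtracted, per the file headers. Per the labels and the study's methods, further analysis used GeneSpring and t-tests. A t-test per probe was run here as an alternative. The deposited series value table, an intensity too, held the same values rounded and served as an alternative.

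Control and outlier-flagged spots were left out, each array was divided by its 75th percentile, log2 was taken with a floor of 1, and spots of a probe were averaged. Probes that neither group had above background on both of its arrays were not tested. limma 3.58.1 (R 4.3.3; lmFit and eBayes, Benjamini-Hochberg adjustment over all tested probes) compared the 2 groups without covariates. A call needed an adjusted p-value below 0.05 and a 2-fold difference. Genes were named in the text when kept at 2 non-overlapping positions, when studied by RT-qPCR, or when called or extreme in a gene list, and 1 gene that met these rules is not reported here. Gene names are those of the deposited annotation, and 30792 probes matched RefSeq by accession or symbol. Against a group below background a difference is a bound, computed from each array's lowest signal above background.

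The groups, genes and lists were chosen with earlier results of these data known. The test was checked on arrays simulated from the means and spread of the untreated arrays, with 200 of 24346 probes changed. It called 0% of them at a true log2 difference of 1, 43% at 2 and 74.5% at 3. False calls numbered 0, 5 and 9. A probe without a call is therefore not shown to be unchanged. The simulated arrays held no slide difference and no GC trend, and all simulated probes counted as above background. The false calls thus give no measure of calls that a slide difference could bring into the treated comparison. The number of arrays limits the precision. Alternatives were the background correction, normalization, spike-in matching of the slides, removal of a GC trend, the probe filter, offset, test, fold limit, a distance of 200 bases between probes, a replicate block and each treated array left out. Added after the data were seen were the separation rule with its alternatives, the position comparison in the other contrasts and, for untreated clones, a crossed block and each array left out.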

Additional observations from a re-analysis of the deposited data

Results flagged for a closer look

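For 1538 of 26721 probes the difference between knockdown and control clones was itself different between treated and untreated cultures (limma's interaction over 8 arrays, adjusted p-value below 0.05). Values are treated minus untreated differences in log2 at positions of genes named by the rules above. The genes listed below were chosen for a treated difference of at least 2-fold, and that difference is part of each value. Their signs were therefore largely set by the choice and add no support to it. Both treated control arrays were on the other slide, so slide and condition cannot be told apart in each of them, and the part of the slide was not tested.

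Values above 0 were found for *ADAMTS7* (1.77 and 1.91), *BAALC* (2.02 and 2.59), *BSDC1* (1.55), *CBX1* (1.56), *DTX2* (1.44 and 1.82), *HDGF* (1.14) and *HERC2* (1.87). They were also found for *KIAA1751* (2.53 and 2.24), *MMRN2* (1.46), *MUC2* (2.19 and 2.28), *MUC4* (1.76), *RAC2* (1.47 and 1.12), *RASA4* (2.31), *SCD5* (1.86 and 1.29) and *TGFA* (1.25). Values below 0 were found for *DNAH3* (-1.32), *HEATR7B1* (-1.62), *HRASLS5* (-2.86), *KPNB1* (-1.16 and -1.45), *PPIA* (-0.99) and *TRAF3IP2-AS1* (-3.18). Groups of 2 clones are too small to test a single array as standing apart.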

How the results depend on the processing

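Counts are given as probes lower and higher, then genes lower and higher at 2 positions, then genes lower and higher by separation, where they moved by over 1.5 times. Unfiltered dim probes gave 0 and 0 (20574 probes at an unadjusted p below 0.05), 0 and 0, and 174 lower. Normexp gave 500 probes higher, 6 and 3 genes, and 11 and 5. Quantile normalization gave 1 gene lower. Probes above background on all 4 treated arrays gave 620 higher, 1 gene lower, and 25 higher. Spike-in matching gave 1747 higher, 33 genes higher, and 94 higher. Removing the GC trend gave 249 and 548, and 0 and 3. A fit of all 8 arrays gave 948 and 2014, and 8 and 44. The methods' t-test gave 0 and 2 (5900 at an unadjusted p below 0.05), and 0 and 0. An intensity trend in eBayes gave 763 lower, and 5 and 24. A 4-fold limit gave 156 and 429, 0 and 1, and 0 and 1. No fold limit gave 507 and 698 by separation. Adding 50 gave 634 higher, and 10 and 12 by separation. Leaving out each treated array gave 0 to 86 probes lower, 0 to 1 higher, 0 and 0 genes, and 49 to 126 and 53 to 103 by separation, with the lone array assumed to vary like the other group.

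The replicate block gave 0 and 0 probes (7134 at an unadjusted p below 0.05) and 0 and 0 genes in limma. Same-numbered clones share only a number, and their deviations correlated by -0.01 in treated and -0.14 in untreated clones. In untreated clones the block and the crossed pairing both gave 0 and 0 calls in limma (1064 and 476, and 1670 and 918, at an unadjusted p below 0.05), the fit of all 8 arrays gave 5 and 2, and leaving out an array gave 0 to 314 lower and 0 to 382 higher, with 20 and 129 without TET1-KD1 and 314 and 382 without TET1-KD2. The lowest limma adjusted p of the *TET1* probes, 0.0564 with a mean difference of -0.83, was 0.0449 with quantile normalization (-0.87), where a probe was called, and 0.0370 with normexp (-0.65), where none was. *DKK3* turned above 0 with quantile normalization (0.00099), spike-in matching (0.17), the GC trend removed (0.16), without CONT1 (0.12) and without TET1-KD1 (0.068), within a range of -0.12 to 0.12 with 1 array left out. The mean over positions of *HERC2* turned below 0 with normexp (-0.10) and for probes above background on all arrays (-0.00043). Under 6 settings of the values together, *XLOC_008047* alone of the 14 genes kept by calls remained, and 6 of 51 and 3 of 39 genes remained by separation. Leaving out saturated spots was not run, as no spot was saturated. The cause of these changes was not tested.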
